A study of Mus musculus with 15 samples.

Results

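Forskolin given for 3 days (FSK3D) was compared with forskolin given for 1 day (FSK1D) in differentiated adipocytes of the MAP line, over 3 libraries of each group. These 6 samples were chosen by their treatment label from the 15 samples of the series, and the comparison covers the 14421 gene symbols, of 24421 in the table, that passed a filter on low counts. MAP cells are an immortalized line of mouse adipocyte progenitors, so the data describe 1 line in culture. Cells of all groups were grown to confluence and differentiated with insulin, isobutylmethylxanthine, dexamethasone and rosiglitazone for 2 days, then with insulin and rosiglitazone for 2 days. Differentiated cells at day 7 to 8 then received forskolin, rosiglitazone for 3 days (Rosi3D), or vehicle. The forskolin groups had it for 4 h in FSK4h, for 1 day in FSK1D and for 3 days in FSK3D. The labels describe these treatments as inducing browning, the gain of heat-producing features by fat cells. The sources used here state neither the doses of these treatments nor the harvest time of the vehicle cells. FSK3D and FSK1D have no vehicle group of their own time, so time in forskolin and time in culture cannot be told apart.

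Forskolin, a plant diterpene, activates adenylyl cyclase and so raises cyclic AMP (cAMP), the messenger that noradrenaline raises in fat cells through beta-adrenergic receptors. Through protein kinase A, cAMP starts lipolysis and activates CREB, a transcription factor that induces a quick set of genes, several of which encode phosphatases, phosphodiesterases and repressors that dampen the signal. In brown and beige fat cells, cAMP also induces the coactivator PGC-1alpha, mitochondrial enzymes and the uncoupling protein UCP1. PPARgamma, the receptor of rosiglitazone, maintains the fat cell program, and inflammatory cytokines weaken it.

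Libraries held 14056200 to 31079564 counts in FSK3D and 25638062 to 26945435 counts in FSK1D, and the library with the fewest counts was FSK3D S11. Libraries are named by their running number, S10 to S12 in FSK3D and S7 to S9 in FSK1D. Levels are given as CPM, a gene's share of the library's counts scaled by TMM factors for library composition, and differences as log2 fold changes of FSK3D over FSK1D ± SE. Tests are edgeR's quasi-likelihood test with Benjamini-Hochberg adjustment over all 14421 genes, and rose or fell means an adjusted p under 0.05, by an amount given on the log2 scale. The precursor of ribosomal RNA, Rn45s, took 4.78% ± 0.890 of counts in FSK3D and 7.60% ± 0.564 in FSK1D (SD, n = 3 each). The labels call the cells adipocyte progenitors, while several fat cell genes were among the highest levels per transcript length. Among tested genes, ranked by TPM, which is per transcript length, the adipsin gene Cfd ranked 2 in FSK3D and 3 in FSK1D, the lipoprotein lipase gene Lpl ranked 7 and 15, and the adiponectin gene Adipoq ranked 11 and 34. Progenitor markers were present as well, with Pdgfra at rank 1584 and 1463 and Pdgfrb at 1306 and 1602, while Dlk1 was low at 13498 and 13728.

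Across all genes, 51.0% (7358) differed between the 2 times. Of the tested genes, 25.2% (3639) rose and 25.8% (3719) fell, and the median log2 fold change was 0.017 with quartiles of −0.27 and 0.31. Changes of at least 2-fold were fewer, with 4.56% (658) higher and 4.06% (586) lower in FSK3D. With so many calls, every count in a gene list below has to be read against these shares, which are repeated only for some lists. In bulk RNA, fewer cells of a type and less RNA per cell cannot be told apart.

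**Figure D1:**
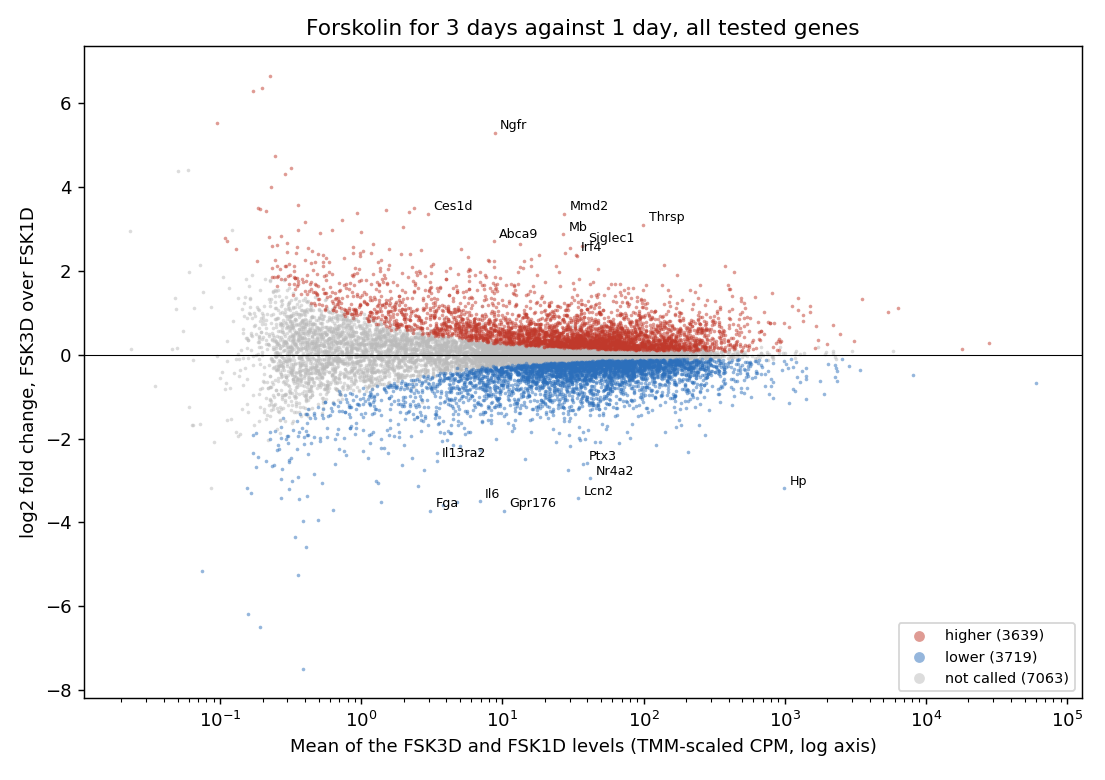
Each point is 1 tested gene, with the mean of the FSK3D and FSK1D levels on the x axis (TMM-scaled CPM, log axis) and the log2 fold change of FSK3D over FSK1D on the y axis. The 3639 genes that rose and the 3719 that fell spread about equally around 0. Names mark some of the largest changes among called genes of at least 5 CPM without overlap between libraries, numbered clone symbols left out.

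For ranking by fold or by adjusted p, genes had to be called and to have at least 5 CPM in the higher group. Their FSK3D and FSK1D libraries could not overlap, and symbols that are only numbered clone or model names were left out. Among these genes the largest rise was that of Ngfr, which encodes the nerve growth factor receptor p75 (chromosome 11, 95568818 to 95587735, minus strand, GRCm38). Ngfr had 17.4, 15.2 and 19 CPM in the FSK3D libraries, against 0.619, 0.379 and 0.306 CPM in the FSK1D libraries. The groups were far apart, and the log2 fold change was 5.30 ± 0.195 (adjusted p = 1.43e-20). Next in size were Ces1d, a carboxylesterase with lipase activity, Mmd2, a membrane protein of the progestin and adipoQ receptor family, and Thrsp, the thyroid hormone responsive Spot 14 protein of lipogenic tissue. Their log2 fold changes were 3.37, 3.36 and 3.10. Myoglobin, Mb, the oxygen-binding protein of oxidative muscle, which brown fat also makes, had 41.2, 49.1 and 52.2 CPM in the FSK3D libraries, against 6.26, 7.46 and 5.63 CPM in the FSK1D libraries. The log2 fold change of Mb was 2.88 ± 0.184 (adjusted p = 2.21e-10). Over the series Mb averaged 2.71 ± 1.08 CPM in vehicle, 2.81 ± 0.679 CPM in FSK4h, 6.45 ± 0.930 CPM in FSK1D and 47.5 ± 5.70 CPM in FSK3D, with 1.25 ± 0.331 CPM in Rosi3D. It shares 4.29% of its exonic bases with Apol6 on the opposite strand.

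The other members of the 12 largest rises lay between 2.39 and 2.71. They were Abca9, a lipid transporter of the ABC family, Tmem45b, a transmembrane protein, Siglec1, a sialic acid-binding lectin, and Adcyap1r1, the receptor of the cAMP-raising peptide PACAP. Also among them were Fmo2, a flavin monooxygenase, Adh1, an alcohol dehydrogenase that oxidizes retinol, and Irf4. Adcyap1r1 averaged 92.4 CPM in vehicle, 8.77 CPM in FSK1D and 51.2 CPM in FSK3D, so at 3 days it was still below vehicle. Irf4, a transcription factor that partners PGC-1alpha in brown fat, had 54.5, 58.1 and 53.7 CPM in the FSK3D libraries, against 9.75, 11.6 and 10.4 CPM in the FSK1D libraries. It was also among the 6 rises with the smallest adjusted p (2.39 ± 0.0779, adjusted p = 2.32e-22), as was Irs1, the insulin receptor substrate, at 1.58 ± 0.0505 (adjusted p = 1.57e-22). Irs1 had 604, 649 and 597 CPM in the FSK3D libraries, against 213, 218 and 188 CPM in the FSK1D libraries. The rest of those 6 were Lctl, a lactase-like protein, at 1.66, Ralgapa2, a subunit of a GTPase-activating complex of Ral proteins, at 1.55, Mmd2, and Pck1, which appears with the fat cell genes.

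On the falling side the largest change was that of Gpr176, an orphan receptor known from the central clock (chromosome 2, 118277110 to 118373419, minus strand). Gpr176 had 1.06, 1.78 and 1.56 CPM in the FSK3D libraries, against 19, 14.5 and 23.5 CPM in the FSK1D libraries, a difference of −3.72 ± 0.182 (adjusted p = 1.66e-16). Acute-phase and cytokine genes filled much of the rest: Fga, the fibrinogen alpha chain, fell by 3.72, Saa3, an acute-phase serum amyloid, by 3.51, Il6, the cytokine interleukin 6, by 3.50, Lcn2, the iron-sequestering lipocalin 2, by 3.43, and Hp, haptoglobin, by 3.19 on the log2 scale. Stc1 (stanniocalcin 1), Nr4a2 (a nuclear receptor induced by cAMP), Ahr (the aryl hydrocarbon receptor), Ptx3 (pentraxin 3), Mt2 (a metallothionein) and Il13ra2 (a decoy receptor of interleukin 13) made up the 12, at −3.60 to −2.53. Hp had 169.8, 159 and 254 CPM in the FSK3D libraries, against 1757, 1739 and 1836 CPM in the FSK1D libraries. Its 3 FSK3D libraries were below every FSK1D library, which the rule that named it required. Saa3, Mt2 and the rising gene Ces1d have near copies in the genome, among which reads may be split.

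The falls with the smallest adjusted p were in other genes. Rcan1, an inhibitor of the phosphatase calcineurin, had 32.2, 32.2 and 33 CPM in the FSK3D libraries, against 122, 126 and 136 CPM in the FSK1D libraries, and a log2 fold change of −1.98 ± 0.0579 (adjusted p = 3.13e-23). Sbno2, a transcriptional regulator induced by cytokines of the interleukin 6 and 10 type, followed at −1.68 ± 0.050 (adjusted p = 3.13e-23), and Gcnt2, a glycosyltransferase of the I blood group antigen, at −2.10 ± 0.0654 (adjusted p = 9.41e-23). Uap1, an enzyme of the hexosamine pathway, and Osmr, the oncostatin M receptor, fell by 1.72 and 1.32. The rule that named these 5 genes required that no FSK3D library lay inside the FSK1D range.

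Genes of the thermogenic program rose between 1 and 3 days. In this list, 17 of 23 tested members rose and 3 fell, with a median log2 fold change of 1.19, against 25.2% of all genes rising. The uncoupling protein gene Ucp1, which defines brown and beige fat (chromosome 8, 83290352 to 83298452, plus strand), had 4.24, 6.10 and 5.41 CPM in the FSK3D libraries, against 1.24, 1.14 and 1.07 CPM in the FSK1D libraries. The 2 ranges were separate, and the log2 fold change was 2.17 ± 0.240 (adjusted p = 2.12e-09). Its level stayed low per transcript length, at rank 9750 of tested genes in FSK3D and 12048 in FSK1D. Over the series, Ucp1 averaged 0.0753 ± 0.0829 CPM in vehicle, 8.42 ± 0.648 CPM in FSK4h, 1.15 ± 0.0834 CPM in FSK1D and 5.25 ± 0.939 CPM in FSK3D, with 0.827 ± 0.313 CPM in Rosi3D, so FSK3D lay below the FSK4h level.

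Cidea, a lipid droplet protein of brown fat, had 13.1, 11.1 and 15.8 CPM in the FSK3D libraries, against 2.62, 3.86 and 2.07 CPM in the FSK1D libraries, and Cox8b, the muscle and brown fat form of a cytochrome oxidase subunit, had 8.77, 9.59 and 10.4 CPM in FSK3D and 2.37, 1.70 and 1.61 CPM in FSK1D. For both genes the lowest FSK3D library was above the highest FSK1D library, and the log2 fold changes were 2.25 ± 0.230 (adjusted p = 5.79e-07) and 2.34 ± 0.172 (adjusted p = 1.59e-13). Ppargc1a, which encodes PGC-1alpha, had 49.4, 50.9 and 47.7 CPM in the FSK3D libraries, against 18.6, 19.6 and 16.7 CPM in the FSK1D libraries, a rise of 1.43 ± 0.0857 (adjusted p = 5.27e-14). Ppara, the fatty acid-sensing nuclear receptor, rose by 2.13 ± 0.0871 (adjusted p = 9.92e-20), and S100b, a calcium-binding protein of brown fat, by 2.24 ± 0.150 (adjusted p = 1.54e-14). Adrb3, the beta-3 adrenergic receptor of fat cells, rose by 1.43 ± 0.0730 (adjusted p = 4.66e-16). Adrb3 averaged 124 CPM in vehicle, 24.7 CPM in FSK1D and 66.6 CPM in FSK3D, so at 3 days it was still below vehicle. Elovl3, a fatty acid elongase of cold-exposed brown fat, had 4.08, 4.18 and 3.15 CPM in FSK3D and 1.89, 1.67 and 1.68 CPM in FSK1D, and rose by 1.10, and Pdk4, the kinase that turns off pyruvate dehydrogenase, rose by 0.77.

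The 3 members that fell were Kng2, Fgf21 and Cited1. Kng2, a kininogen, fell by 0.97. Fgf21, a hormone that brown fat secretes under cAMP, had 0.571, 0.411 and 1.02 CPM in the FSK3D libraries, against 1.53, 1.97 and 1.30 CPM in the FSK1D libraries. It was low in both groups, and the difference was −1.15 ± 0.324 (adjusted p = 0.00341). Cited1, a marker of beige cells, was under 1 CPM in each of the 6 libraries, and its call was lost without FSK1D S7 (adjusted p = 0.102) or FSK3D S10 (adjusted p = 0.0581). Of the 29 genes listed, 1 was not in the table and 5 did not pass the filter, among them the brown fat markers Zic1 and Lhx8, which had no count in any library, and the deiodinase gene Dio2, which had 20 counts over FSK3D and 6 over FSK1D.

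**Figure D2:**
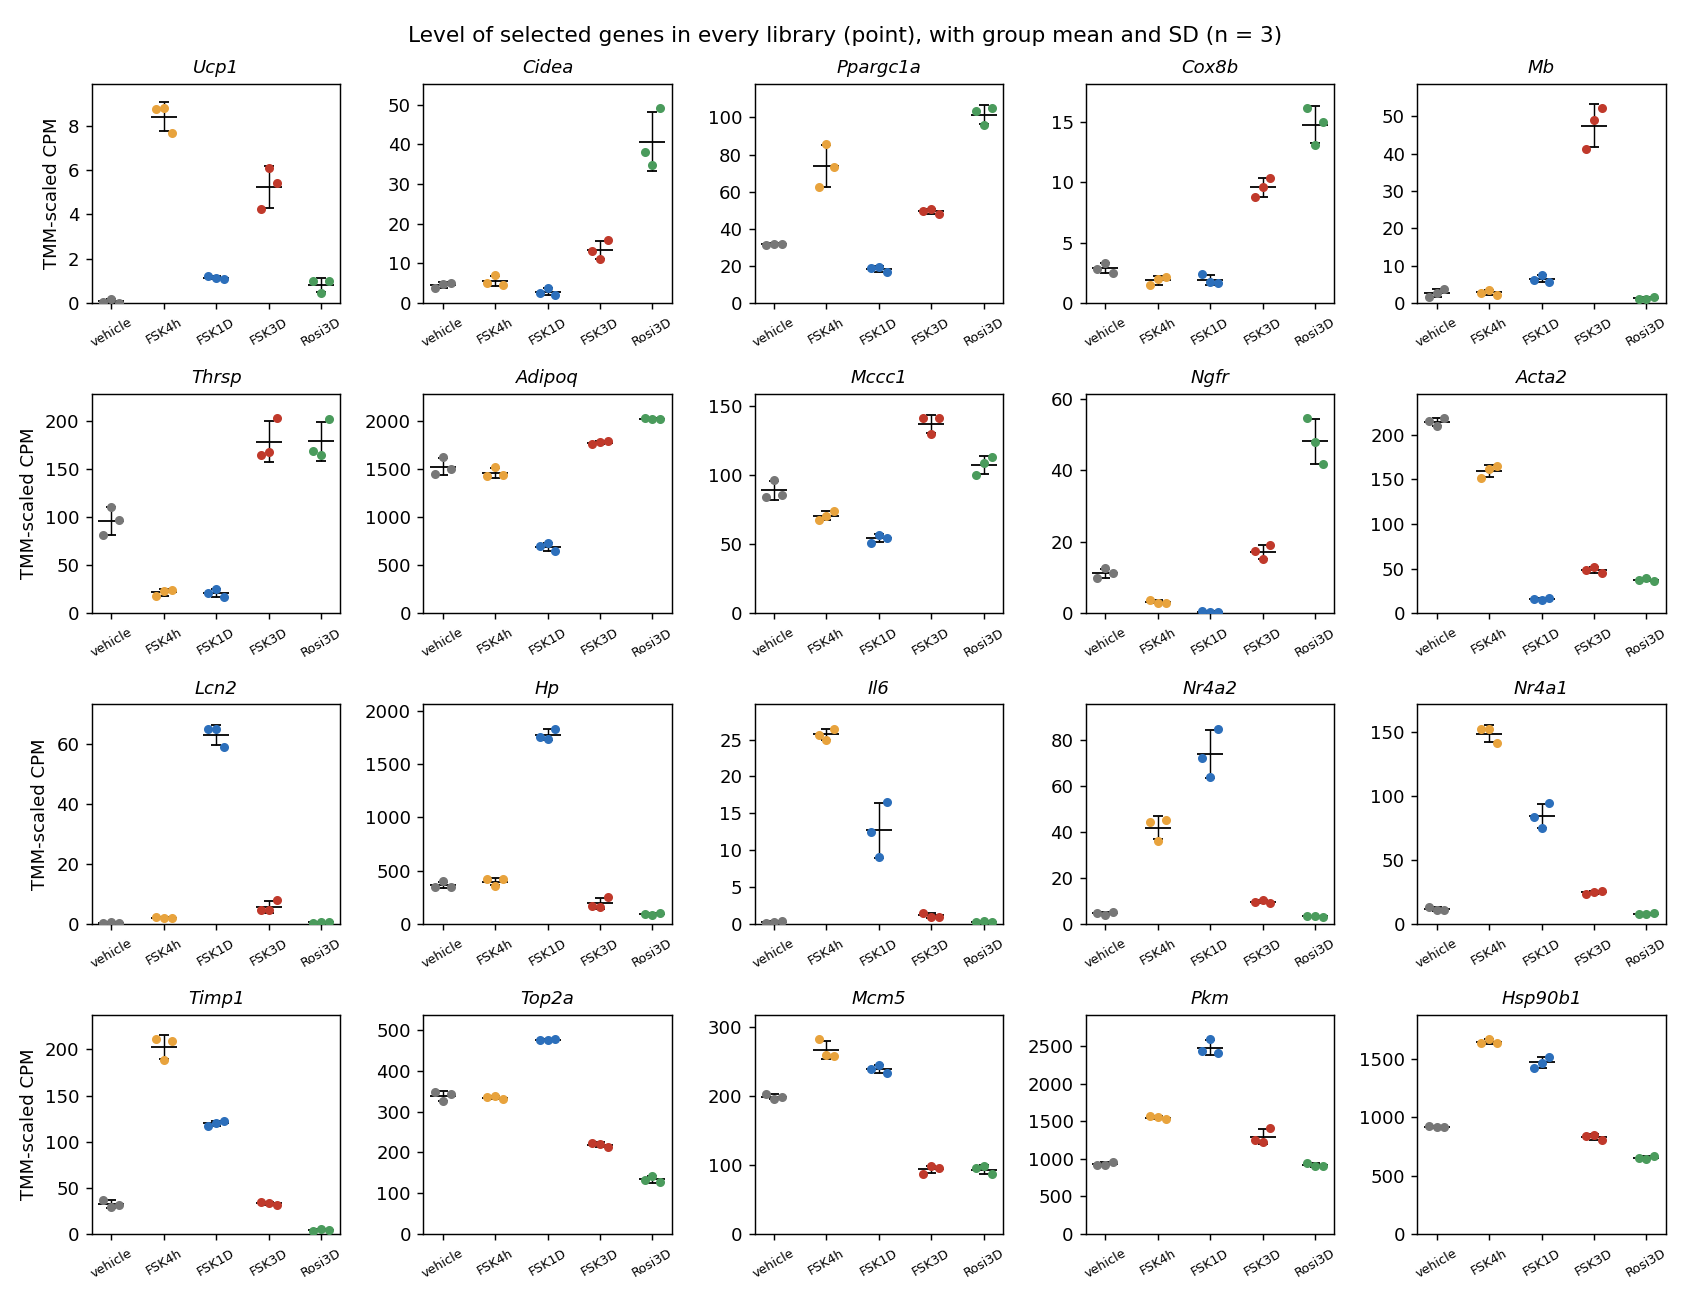
Each panel shows 1 gene, with a point for every library, the group mean and its SD (n = 3) in TMM-scaled CPM, in the order vehicle, FSK4h, FSK1D, FSK3D and Rosi3D. Ucp1 at 4.24 to 6.10 CPM and Mb at 41.2 to 52.2 CPM in FSK3D were above FSK1D, while Lcn2 at 4.45 to 7.86 CPM and Hp at 159 to 254 CPM in FSK3D were below it.

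Fat cell genes rose almost as a whole. Among mature adipocyte genes, 22 of 25 tested members rose and 1 fell, with a median log2 fold change of 0.88. Adipoq had 1759.6, 1787 and 1791 CPM in the FSK3D libraries, against 699, 728 and 652 CPM in the FSK1D libraries, with no overlap and a log2 fold change of 1.36 ± 0.0468 (adjusted p = 5.82e-22). Lpl, which frees fatty acids from lipoproteins, rose by 1.12 ± 0.0546 (adjusted p = 2e-17), and Pnpla2, the first lipase of triglyceride breakdown, by 0.98 ± 0.0572 (adjusted p = 2.03e-14). The largest called rise of the list was that of Pck1, which makes glycerol from small precursors in fat cells. Pck1 had 55.3, 57.1 and 57.6 CPM in the FSK3D libraries, against 11.9, 10.6 and 10.7 CPM in the FSK1D libraries, a difference of 2.35 ± 0.080 (adjusted p = 4.5e-22). Agt, angiotensinogen, was the member that fell, with 251, 251 and 294 CPM in FSK3D and 419, 439 and 471 CPM in FSK1D. Lep, which encodes leptin, had no count in the FSK1D libraries or in FSK3D S12 and under 1 CPM in the other FSK3D libraries. It was not called at an adjusted p of 0.056 and was called without FSK3D S12 (adjusted p = 0.0191) and by DESeq2 (adjusted p = 0.0289).

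Genes that store and mobilize triglyceride rose together with them. For triglyceride synthesis, 14 of 19 tested members rose and 2 fell, with a median log2 fold change of 0.90, and for lipolysis and lipid droplet genes, 13 of 20 tested members rose and 3 fell, with a median log2 fold change of 0.59. Agpat2, the acyltransferase lost in a human lipodystrophy, had 579.7, 582 and 644 CPM in the FSK3D libraries, against 192, 197 and 179 CPM in the FSK1D libraries, a difference of 1.67 ± 0.0594 (adjusted p = 1.08e-18). Lpin1, a phosphatidate phosphatase, rose by 1.27, Dgat1, which adds the last fatty acid, by 1.05, and Gpam, the mitochondrial first acyltransferase, by 0.89. In lipolysis, Fabp5, a fatty acid carrier, rose by 1.03 and Lipe, hormone-sensitive lipase, by 0.64. Lipe shares 15.6% of its exonic bases with another symbol on the opposite strand.

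The lipid genes that fell were fewer. Hilpda, an inhibitor of the lipase encoded by Pnpla2, had 9.71, 9.94 and 11.8 CPM in the FSK3D libraries, against 21.9, 29.5 and 24.3 CPM in the FSK1D libraries, and fell by 1.25. Angptl4, a secreted inhibitor of lipoprotein lipase, had 127, 129.9 and 159 CPM in FSK3D and 222, 227 and 211 CPM in FSK1D, and fell by 0.66. Plin2, a lipid droplet coat protein, fell by 0.21, Gyk, glycerol kinase, by 0.35, and the lipin Lpin3 by 0.60. Except for Lpin3, these genes were higher in FSK4h than in vehicle by mean level, and Hilpda averaged 6.15 ± 1.11 CPM in vehicle, 128 ± 14.2 CPM in FSK4h, 25.3 ± 3.86 CPM in FSK1D and 10.5 ± 1.13 CPM in FSK3D, with 6.64 ± 0.761 CPM in Rosi3D.

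Genes of new fatty acid synthesis rose too. In that list, 15 of 22 tested members rose and 1 fell, with a median log2 fold change of 0.40. Thrsp had 164, 168 and 203 CPM in the FSK3D libraries, against 21.3, 24.8 and 16.5 CPM in the FSK1D libraries, the largest change of the list (3.10 ± 0.182, adjusted p = 5.56e-08). Fasn, fatty acid synthase, had 4673, 4610.2 and 5768 CPM in FSK3D and 2025, 2078 and 1910.5 CPM in FSK1D, a rise of 1.32 ± 0.0726 (adjusted p = 1.36e-11). Pnpla3, a lipase induced by feeding, rose by 1.80, G6pdx, which makes NADPH in the pentose pathway, by 0.82, Slc25a1, the mitochondrial citrate carrier, by 0.81, and Acaca, acetyl-CoA carboxylase, by 0.63. Scd1, the main desaturase of fat cells, had 30218, 29958 and 31667 CPM in the FSK3D libraries, against 26475, 25232 and 23892 CPM in the FSK1D libraries, and rose by 0.28. The fall of the desaturase Fads2 (−0.22) lost its call without FSK1D S7 (adjusted p = 0.0667) or FSK3D S10 (adjusted p = 0.0544). The number of members that fell, 1, was 2 without FSK1D S8 or without FSK1D S9, and 3 with RLE factors or with Rn45s left out.

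Cholesterol genes moved both ways. There, 10 of 25 tested members rose and 4 fell, with a median log2 fold change of 0.067. Hmgcs1, a synthase early in the pathway, had 312, 326 and 316 CPM in the FSK3D libraries, against 175, 162 and 162 CPM in the FSK1D libraries, and rose by 0.94. Nsdhl, Insig1, Sc5d and Lss rose by 0.75, 0.64, 0.57 and 0.53. Srebf2, which encodes the regulator of the pathway, fell by 0.34, and Stard4, a sterol carrier, by 0.23. Without FSK1D S9 the median of the list was 0.19. The sterol response element (TCACNCCAC on either strand) was in 1 of 20 promoters, held by 17 of the 25 tested members, against 1.05% of all promoters.

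Most nuclear genes of the respiratory chain rose, and no rise reached 2-fold. For complex I, 33 of 35 tested members rose and 0 fell, with a median log2 fold change of 0.48, and for complexes II to V with cytochrome c, 36 of 40 tested members rose and 0 fell, with a median log2 fold change of 0.50. Complex I members ran from 0.12 to 0.87 on the log2 scale. The summed level of the complex I subunits was 2319 to 2459 CPM in FSK3D and 1643 to 1810 CPM in FSK1D, with no overlap. Ndufb9, an accessory subunit, had 143, 137 and 139 CPM in the FSK3D libraries, against 88.1, 99.1 and 94.4 CPM in the FSK1D libraries, a difference of 0.57 ± 0.0502 (adjusted p = 1.02e-11). Ndufs3, a core subunit, had 58.4, 58 and 64.2 CPM in FSK3D and 35.8, 37.1 and 32.3 CPM in FSK1D, and rose by 0.78. Ndufs1, Ndufv2 and Ndufa10 rose by 0.57, 0.55 and 0.55.

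In the later complexes the largest of the named rises was that of Uqcrc2, a core protein of complex III, with 145, 138 and 164 CPM in the FSK3D libraries, against 83.7, 84.3 and 77.8 CPM in the FSK1D libraries, and a difference of 0.87 ± 0.0573 (adjusted p = 1.49e-14). Uqcrfs1, the Rieske iron-sulfur protein of complex III, rose by 0.85. Cox7b of cytochrome oxidase rose by 0.70, Atp5c1 of the ATP synthase by 0.62 and Sdha, the flavoprotein of complex II, by 0.60. Uqcrc2 shares 19.7% of its exonic bases with Pdzd9 on the opposite strand. Without FSK3D S12, with RLE factors, with Rn45s left out or with DESeq2, 1 member of complexes II to V fell. Mitochondrial ribosomal proteins moved less: 27 of 54 tested members rose and 1 fell, with a median log2 fold change of 0.22, and Mrpl12, Mrps6, Mrps18a, Mrpl3 and Mrps35 rose by 0.34 to 0.61, while Mrpl28 fell by 0.29.

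Every tested TCA cycle and pyruvate dehydrogenase gene rose. That is, 19 of 19 tested members rose and 0 fell, with a median log2 fold change of 0.73. Pdhb, the beta subunit of pyruvate dehydrogenase, had 136, 141 and 151 CPM in the FSK3D libraries, against 61.7, 63.6 and 60.8 CPM in the FSK1D libraries, a difference of 1.20 ± 0.0590 (adjusted p = 6.46e-18). Idh3a, the catalytic subunit of isocitrate dehydrogenase, had 649, 655 and 688 CPM in FSK3D and 329, 346 and 313 CPM in FSK1D, a difference of 1.01 ± 0.0559 (adjusted p = 2.52e-15). Idh3b, Pcx (pyruvate carboxylase, which refills the cycle) and Pdha1 rose by 0.83, 0.80 and 0.72. FSK3D and FSK1D libraries did not overlap for any of these 5 genes, which were picked as the members with the smallest adjusted p. The share of all genes without overlap was not counted, so this is no trait of the list. Pdha1 shares 16.1% of its exonic bases with Map3k15 on the opposite strand.

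Fatty acid oxidation enzymes rose as well, with Cpt1a as the exception. Of this list, 22 of 25 tested members rose and 1 fell, with a median log2 fold change of 0.80. Eci1, an isomerase for unsaturated fatty acids, had 119.6, 123 and 124 CPM in the FSK3D libraries, against 52.7, 62.5 and 50.2 CPM in the FSK1D libraries, and rose by 1.15, and Acad11, Decr1 and Acaa2 rose by 0.89, 0.81 and 0.80. Cpt1a, the liver form of the carnitine transferase that admits fatty acids to mitochondria, had 109, 107 and 97.2 CPM in the FSK3D libraries, against 215, 206 and 218 CPM in the FSK1D libraries. It was lower in each FSK3D library, at −1.03 ± 0.0539 (adjusted p = 2.68e-17), and over the series it averaged 97 ± 4.60 CPM in vehicle, 225 ± 15.1 CPM in FSK4h, 213 ± 6.17 CPM in FSK1D and 104 ± 6.32 CPM in FSK3D, with 163 ± 7.28 CPM in Rosi3D. In the peroxisomal list, 21 of 30 tested members rose and 2 fell, with a median log2 fold change of 0.36. Cat, catalase, had 699.5, 702 and 693 CPM in FSK3D and 287, 289 and 246 CPM in FSK1D, and rose by 1.35. Gnpat, the first enzyme of ether lipid synthesis, rose by 1.13, Pex19 and Pex3, which insert peroxisomal membrane proteins, by 0.77 and 0.75, and Scp2, a sterol carrier and thiolase, by 0.73. Agps, the enzyme after Gnpat in ether lipid synthesis, fell by 0.25. The number of members that fell, 2, was 1 without FSK1D S7, FSK1D S8, FSK3D S10 or FSK3D S12, each left out alone. It was also 1 with no composition factors and with thinned counts.

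Breakdown of the branched-chain amino acids valine, leucine and isoleucine, a major fuel and lipid source of fat cells, had a higher median than the respiratory chain lists. There, 18 of 20 tested members rose and 0 fell, with a median log2 fold change of 1.08, and 12 members rose at least 2-fold, while 4.56% of all tested genes did. The summed level was 2114 to 2215 CPM in FSK3D and 851 to 924 CPM in FSK1D. Mccc1, a subunit of the leucine pathway's carboxylase, had 141, 129.7 and 141 CPM in the FSK3D libraries, against 51.1, 57 and 54.9 CPM in the FSK1D libraries. The lowest FSK3D library was more than 2 times the highest FSK1D library, and the difference was 1.34 ± 0.0602 (adjusted p = 6.19e-19). Ivd, which acts before Mccc1, had 99.1, 95.7 and 104 CPM in FSK3D and 42.2, 42.7 and 39.5 CPM in FSK1D, and rose by 1.27 ± 0.0608 (adjusted p = 2.63e-18). Pcca, a subunit of propionyl-CoA carboxylase, rose by 1.22, and Hibch and Hibadh, consecutive enzymes of valine breakdown, rose by 1.14 and 1.04.

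Promoters of these metabolic genes were searched for motifs, with motifs and printed genes chosen after the values were seen. The motif searched first was that of NRF1, a factor known for binding nuclear genes of mitochondrial proteins (GCATGCGC on either strand, in the 250 bases before the start). It was in 6 of 34 promoters of complexes II to V (17.6%), 4 of 20 of fatty acid oxidation, 3 of 33 of complex I (9.09%), 2 of 23 of the TCA cycle (8.70%) and 1 of 21 of branched-chain amino acid breakdown (4.76%), against 2.26% of all 32851 promoters. The half-site of the estrogen-related receptors (AAGGTCA on either strand) was in 6.06% of complex I promoters, 5.88% of those of complexes II to V, 1 of 20 of those of fatty acid oxidation and none of the 23 and 21 promoters of the other lists, against 4.08% of all. A match is only a description of the sequence and says nothing about the change. A gene with several starts counts once for each, and all promoters include those of genes not tested. The segments below, from RefSeq on GRCm38.p6, were chosen as examples with a match and run 5′ to 3′ on the gene's strand over the 120 bases that end at the base before the start, with the NRF1 motif in capitals. They are chr15:82354292-82354411 on the minus strand for Ndufa6 and chr6:50566570-50566689 on the minus strand for Cycs. Ndufa6 encodes an accessory subunit of complex I and Cycs encodes cytochrome c, and both genes are members of the lists above.
Ndufa6: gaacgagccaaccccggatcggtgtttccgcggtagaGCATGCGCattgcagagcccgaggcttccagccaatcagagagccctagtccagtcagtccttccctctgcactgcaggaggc
Cycs: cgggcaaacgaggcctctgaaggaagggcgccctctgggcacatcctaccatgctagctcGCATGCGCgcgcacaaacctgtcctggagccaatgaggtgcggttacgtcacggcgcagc

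**Figure D3:**
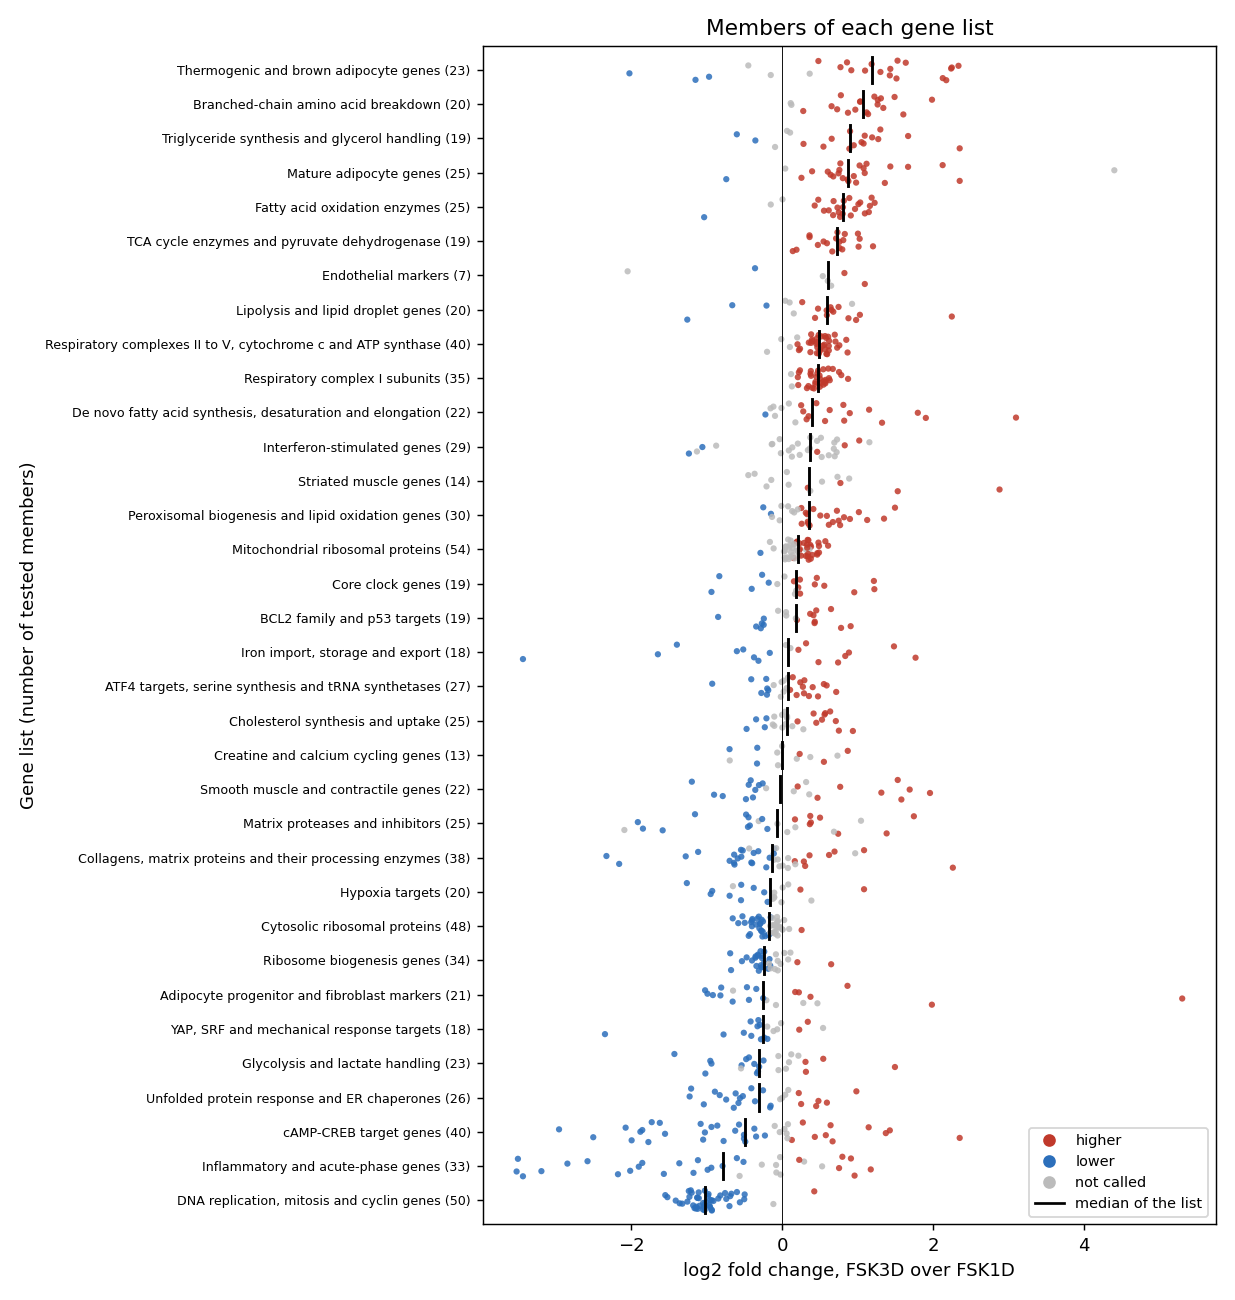
Each row is a gene list with its number of tested members, each point a member by its log2 fold change of FSK3D over FSK1D, coloured by its call, and each black bar the median. Medians run from 1.19 for thermogenic genes to −1.02 for DNA replication, mitosis and cyclin genes, and lists such as smooth muscle and iron genes hold members on both sides. The grey point at 4.40 is Lep, which had no count in FSK1D, so its fitted value is not a measured fold.

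Genes that cAMP and CREB induce fell on balance. There, 10 of 40 tested members rose and 24 fell, with a median log2 fold change of −0.50. The share that rose, 25%, was that of all genes (25.2%), so the rises are no trait of the list. In contrast, 60% fell, against 25.8% of all genes. The immediate-early nuclear receptor Nr4a2 had 9.46, 10.4 and 9.0 CPM in the FSK3D libraries, against 72.3, 64.1 and 85 CPM in the FSK1D libraries. The difference was −2.95 ± 0.108 (adjusted p = 2.48e-19). Nr4a1, of the same family, had 23.4, 24.9 and 25.8 CPM in the FSK3D libraries, against 83.5, 75.2 and 94.2 CPM in the FSK1D libraries, a difference of −1.77 ± 0.0827 (adjusted p = 3.35e-16). Junb, an AP-1 subunit, had 16, 16.3 and 19.6 CPM in FSK3D and 73, 78.3 and 68.8 CPM in FSK1D, and fell by 2.07. Cebpd, a transcription factor of early adipogenesis and inflammation, had 13, 18.4 and 17.4 CPM in FSK3D and 51.2, 53.6 and 55.3 CPM in FSK1D, and fell by 1.73. Cebpd shares 15% of its exonic bases with Spidr on the opposite strand.

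Both genes were also measured at the earlier times. Nr4a1 averaged 11.5 ± 1.67 CPM in vehicle, 149 ± 6.54 CPM in FSK4h, 84.3 ± 9.53 CPM in FSK1D and 24.7 ± 1.22 CPM in FSK3D, with 7.60 ± 0.734 CPM in Rosi3D. Nr4a2 averaged 4.59 ± 0.605 CPM in vehicle, 41.9 ± 5.0 CPM in FSK4h, 73.8 ± 10.5 CPM in FSK1D and 9.63 ± 0.722 CPM in FSK3D, with 3.12 ± 0.311 CPM in Rosi3D. By these means Nr4a1 was highest at 4 h and Nr4a2 at 1 day, and both genes were still above the vehicle level at 3 days.

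The summed level of the list was higher at 3 days, at 3394 to 3538 CPM in FSK3D and 3103 to 3139 CPM in FSK1D, although its median fell. Prkar2b, the regulatory subunit of protein kinase A in fat cells, had 877, 929 and 878 CPM in the FSK3D libraries, against 364, 342 and 329 CPM in the FSK1D libraries, a difference of 1.37 ± 0.0627 (adjusted p = 7.72e-15). Pde3b, the phosphodiesterase through which insulin lowers cAMP, had 462, 494 and 469.9 CPM in the FSK3D libraries, against 216, 224 and 204 CPM in the FSK1D libraries, a difference of 1.15 ± 0.0920 (adjusted p = 1.41e-07). Pde7b, another phosphodiesterase, rose by 0.58, Dusp10, a MAP kinase phosphatase, by 0.67 and Per2, a clock gene, by 0.43, beside Pck1, Ppargc1a and Lipe given above. The rises of Pde10a and Pde4d, both phosphodiesterases, were small (0.28 and 0.13). Pde10a lost its call without FSK1D S8 (adjusted p = 0.0974), FSK3D S10 (adjusted p = 0.115) or FSK3D S12 (adjusted p = 0.086), and Pde4d lost it without FSK1D S7, S8 or S9 or FSK3D S10 or S11 (adjusted p = 0.0649 to 0.134).

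The half-site of the cAMP response element (TGACG on either strand) was in 21 of 42 promoters of members (50.0%), against 17.8% of all promoters. The full palindrome TGACGTCA, which contains it, was in 2 of 42 (4.76%), against 1.55%. These promoters belong to 29 of the 40 tested members. The list holds known cAMP targets, both rising and falling, so the excess says nothing about the change between the times. Nr4a1 and Nr4a2 are shown because both fell and hold 2 and 4 half-sites in these windows, in capitals as TGACG or its complement CGTCA. The segments are chr15:101266726-101266845 on the plus strand for Nr4a1 and chr2:57124084-57124203 on the minus strand for Nr4a2, placed to hold the most matches and lying −120 to −1 and −200 to −81 from the start.
Nr4a1: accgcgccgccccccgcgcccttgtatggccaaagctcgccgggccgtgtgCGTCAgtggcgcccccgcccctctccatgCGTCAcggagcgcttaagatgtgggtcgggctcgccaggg
Nr4a2: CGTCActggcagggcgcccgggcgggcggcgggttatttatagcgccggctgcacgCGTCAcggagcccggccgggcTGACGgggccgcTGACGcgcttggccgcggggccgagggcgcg

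Inflammatory and acute-phase genes fell, several of them strongly. There, 6 of 33 tested members rose and 19 fell, with a median log2 fold change of −0.79, and 14 members fell at least 2-fold, while 4.06% of all tested genes did. Lcn2 (chromosome 2, 32384633 to 32388252, minus strand) had 4.45, 4.59 and 7.86 CPM in the FSK3D libraries, against 64.9, 65 and 59 CPM in the FSK1D libraries. The highest FSK3D library stayed far below the lowest FSK1D library, and the difference was −3.43 ± 0.172 (adjusted p = 2.74e-12). Il6 (chromosome 5, 30013114 to 30019981, plus strand) had 1.47, 0.959 and 0.922 CPM in the FSK3D libraries, against 12.5, 9.09 and 16.5 CPM in the FSK1D libraries, a difference of −3.50 ± 0.213 (adjusted p = 1.74e-14). Saa3 had 0.897, 0.411 and 0.859 CPM in the FSK3D libraries, against 8.11, 7.53 and 10.8 CPM in the FSK1D libraries, a difference of −3.51 ± 0.266 (adjusted p = 2.95e-13). Socs3, the feedback inhibitor of cytokine receptors, had 14.1, 14.1 and 17.4 CPM in FSK3D and 63.8, 57.7 and 64.2 CPM in FSK1D, and fell by 2.01, and Mt2 had 10.3, 10.1 and 13.4 CPM in FSK3D and 62, 76.6 and 66.9 CPM in FSK1D, and fell by 2.58.

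Their timing differed before 1 day. Il6 averaged 0.217 ± 0.105 CPM in vehicle, 25.7 ± 0.762 CPM in FSK4h, 12.7 ± 3.73 CPM in FSK1D and 1.12 ± 0.305 CPM in FSK3D, with 0.237 ± 0.0851 CPM in Rosi3D. Lcn2 averaged 0.318 ± 0.236 CPM in vehicle, 1.97 ± 0.116 CPM in FSK4h, 63 ± 3.47 CPM in FSK1D and 5.63 ± 1.93 CPM in FSK3D, with 0.412 ± 0.0578 CPM in Rosi3D. By these means Il6 was highest at 4 h, whereas Lcn2 was low at 4 h and high at 1 day. At 3 days both were below their 1 day level and above vehicle.

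Against this direction, 6 members rose. C3, the central complement protein, had 2004, 1943 and 2331 CPM in the FSK3D libraries, against 962, 941 and 878 CPM in the FSK1D libraries, a difference of 1.17 ± 0.0567 (adjusted p = 3.15e-16). C4b, complement component 4, which has a near-identical neighbour, had 261, 264 and 327 CPM in FSK3D and 165, 168 and 158 CPM in FSK1D, a difference of 0.80 ± 0.160 (adjusted p = 0.00149). Vcam1, an adhesion molecule, rose by 0.96, the acute-phase glycoprotein gene Orm1 by 0.91 and the chemokine gene Cxcl12 by 0.75. Cxcl12 averaged 408 CPM in vehicle, 65.4 CPM in FSK1D and 111 CPM in FSK3D, so it stayed below vehicle. Tnfaip3, an inhibitor of NF-kappa-B signalling, rose by 0.23 and lost its call without FSK1D S9 (adjusted p = 0.109) or FSK3D S10 (adjusted p = 0.0563). Of 16 macrophage and leukocyte markers, 13 did not pass the filter, and these held 37 counts over FSK3D and 58 over FSK1D. Among them, 6 had no count in the 6 libraries (Ptprc, Adgre1, Tyrobp, C1qa, C1qb and C1qc), while Mrc1 had the most, with 8 counts over FSK3D and 28 over FSK1D. The other 3 markers were tested, with a summed level of 4.90 to 5.35 CPM in FSK3D and 10.1 to 11.1 CPM in FSK1D. Cd14 fell by 1.86 and Csf1r, which shares 15.1% of its exonic bases with Hmgxb3 on the opposite strand, by 0.91, and Cd68 was not called at 0.24. The part of such cells in the result was not tested.

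The NF-kappa-B motif, searched with 2 free positions on either strand, was in 8 of 29 promoters of the inflammatory members (27.6%), against 1.41% of all promoters. A C/EBP motif (TTGCNNAA) was in 11 of 29 (37.9%), against 9.56%, and a STAT motif (TTCNNNGAA) in 5 of 29 (17.2%), against 7.02%. These promoters belong to 24 of the 33 tested members. Known inflammatory genes, both rising and falling, make up the list, so the excess says nothing about the change between the times. The promoters of Il6, Lcn2 and Saa3 are shown as the members with the largest falls that the RefSeq table holds. In capitals are the C/EBP match in each and, in Il6, also the NF-kappa-B match. RefSeq places the start of Lcn2 further downstream than GENCODE, so the Lcn2 segment lies inside the gene interval given above. The segments are chr5:30012986-30013105 on the plus strand for Il6, chr2:32387836-32387955 on the minus strand for Lcn2 and chr7:46715677-46715796 on the minus strand for Saa3, at −128 to −9, −216 to −97 and −120 to −1 from the start.
Il6: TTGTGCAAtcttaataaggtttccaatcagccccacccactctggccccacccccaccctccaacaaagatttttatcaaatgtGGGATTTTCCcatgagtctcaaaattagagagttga
Lcn2: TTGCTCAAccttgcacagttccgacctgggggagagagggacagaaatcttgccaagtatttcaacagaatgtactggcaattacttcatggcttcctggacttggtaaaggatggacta
Saa3: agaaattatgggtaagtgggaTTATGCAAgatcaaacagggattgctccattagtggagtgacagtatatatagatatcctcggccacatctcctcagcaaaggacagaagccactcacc

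Interferon-stimulated genes differed widely between libraries of 1 group. The level of the list, a median over members on the log2 scale relative to the vehicle mean, was −0.0028, 0.32 and −0.45 in FSK3D S10 to S12, against −0.44, 0.33 and −1.26 in FSK1D S7 to S9. The ranges overlapped. Of this list, 3 of 29 tested members rose and 2 fell, with a median log2 fold change of 0.37, and with a fit of the 6 libraries alone no member was called in either direction. Without FSK1D S8, 11 members rose and 1 fell, and without FSK1D S9 none rose and 5 fell. Without FSK1D S7 none rose and 1 fell, without FSK3D S10 none rose and 1 fell, and without FSK3D S11 none rose and 2 fell. With no filter beyond a count above 0, 17 rose and 4 fell. Oasl1, an antiviral protein, had 19.2, 23.8 and 12.9 CPM in the FSK3D libraries, against 42.1, 57.3 and 28.6 CPM in the FSK1D libraries, and its fall (−1.23) was not called in the fit of the 6 libraries alone (adjusted p = 0.0542).

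Genes of DNA replication and mitosis fell nearly without exception. There, 1 of 50 tested members rose and 48 fell, with a median log2 fold change of −1.02, and 27 members fell at least 2-fold. The summed level was 3413 to 3553 CPM in FSK3D and 6297 to 6534 CPM in FSK1D. Mcm5, a subunit of the replicative helicase (chromosome 8, 75109569 to 75128439, plus strand), had 87.2, 98.2 and 95.4 CPM in the FSK3D libraries, against 239, 246 and 233 CPM in the FSK1D libraries. All FSK3D libraries lay under 100 CPM, and the difference was −1.36 ± 0.0522 (adjusted p = 1.21e-20). Top2a, the topoisomerase of mitotic chromosomes, had 223, 221 and 213 CPM in the FSK3D libraries, against 474, 476 and 477 CPM in the FSK1D libraries, a difference of −1.12 ± 0.0443 (adjusted p = 2.22e-20). Mki67, the Ki-67 proliferation antigen, had 236, 240.3 and 222 CPM in FSK3D and 442, 453 and 435 CPM in FSK1D, and fell by 0.93. Cenpe, a kinetochore motor, Mcm3, of the same helicase, and Cdk1, the mitotic kinase, fell by 1.14, 1.16 and 1.04.

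The course before 3 days differed between these genes. Top2a averaged 339 ± 12.2 CPM in vehicle, 334 ± 3.82 CPM in FSK4h, 476 ± 1.54 CPM in FSK1D and 219 ± 5.49 CPM in FSK3D, with 134 ± 7.58 CPM in Rosi3D. Mcm5 averaged 199 ± 3.97 CPM in vehicle, 267 ± 13.5 CPM in FSK4h, 239 ± 6.36 CPM in FSK1D and 93.6 ± 5.71 CPM in FSK3D, with 93.5 ± 5.98 CPM in Rosi3D. By these means Top2a was highest in FSK1D, whereas Mcm5 was highest in FSK4h. The member that rose was Ccnd2, cyclin D2, with 415, 375 and 389.6 CPM in the FSK3D libraries, against 306, 297 and 275 CPM in the FSK1D libraries, and a difference of 0.43 ± 0.0454 (adjusted p = 9.34e-10).

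The CCAAT box (either strand) was in 33 of 44 promoters of members (75%), against 33.8% of all promoters. The cell cycle homology region (TTTGAA) was in 22.7%, against 16%, and an E2F motif (TTTCCCGC) in 6.82%, against 0.895%. These promoters belong to 40 of the 50 tested members, listed as known cell cycle genes, so the excess says nothing about the change. The segments shown are those of 3 members among the 5 with the smallest adjusted p, chr10:69352913-69353032 on the minus strand for Cdk1, chr11:99024259-99024378 on the minus strand for Top2a and chr8:75109389-75109508 on the plus strand for Mcm5, with the CCAAT box (also as ATTGG) and the homology region in capitals. They lie −120 to −1 from the start for Cdk1 and Mcm5 and −189 to −70 for Top2a.
Cdk1: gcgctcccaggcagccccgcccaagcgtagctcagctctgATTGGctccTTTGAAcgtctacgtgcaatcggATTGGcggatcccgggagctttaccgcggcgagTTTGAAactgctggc
Top2a: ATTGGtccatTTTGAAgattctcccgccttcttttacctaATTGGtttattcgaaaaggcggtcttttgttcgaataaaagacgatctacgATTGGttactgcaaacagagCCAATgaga
Mcm5: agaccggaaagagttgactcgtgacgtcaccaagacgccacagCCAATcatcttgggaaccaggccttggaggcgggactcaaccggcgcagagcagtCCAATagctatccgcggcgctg

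Genes of the BCL2 family and p53 targets moved both ways. There, 9 of 19 tested members rose and 6 fell, with a median log2 fold change of 0.18. By share, 47.4% rose, against 25.2% of all genes, and 31.6% fell, against 25.8%. Ccng1, cyclin G1, Zmat3 and Trp53inp1, all p53 targets, rose by 0.78, 0.42 and 0.91. Ccng1 had 853, 837 and 778 CPM in the FSK3D libraries, against 496, 416 and 523 CPM in the FSK1D libraries. The groups were separate. Pmaip1 (NOXA), which promotes cell death, fell by 0.85, Bad by 0.34 and Mcl1, which protects from it, by 0.27. Bad shares 20.5% of its exonic bases with Gpr137 on the opposite strand.

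Glycolysis genes fell more often than they rose. There, 4 of 23 tested members rose and 12 fell, with a median log2 fold change of −0.30. Pkm, pyruvate kinase, had 1256, 1226 and 1404 CPM in the FSK3D libraries, against 2436, 2591 and 2403 CPM in the FSK1D libraries, a difference of −0.93 ± 0.0465 (adjusted p = 6.97e-18). Slc2a1, the basal glucose transporter, had 139, 155 and 153 CPM in the FSK3D libraries, against 292, 313 and 298 CPM in the FSK1D libraries, a difference of −1.02 ± 0.0610 (adjusted p = 1.21e-13). Hk1, hexokinase, and Gapdh fell by 0.95 and 0.54. Pfkfb3, which makes the activator of phosphofructokinase, went the other way with 341, 339 and 349 CPM in the FSK3D libraries, against 122, 132 and 110.3 CPM in the FSK1D libraries, a rise of 1.49 ± 0.0638 (adjusted p = 6.74e-16), and Pfkm and Pdk1 rose by 0.32 and 0.31.

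Among hypoxia targets, 2 of 20 tested members rose and 9 fell, with a median log2 fold change of −0.16. Ndrg1, a stress-induced gene, had 61.3, 67.4 and 57.2 CPM in FSK3D and 146, 157 and 139.6 CPM in FSK1D, and fell by 1.26. P4ha2 and P4ha1, collagen prolyl hydroxylases, fell by 0.69 and 0.38 and Loxl2, a collagen cross-linking oxidase, by 0.54. Ero1l, the oxidase that forms disulfide bonds in the endoplasmic reticulum, rose by 1.09. The rise of the mitophagy receptor Bnip3 (0.24) lost its call without FSK1D S7, FSK1D S9, FSK3D S11 or FSK3D S12 (adjusted p = 0.0534 to 0.0816), which leaves 1 rise. Without FSK1D S7 the median of the list was −0.28.

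Chaperones of the endoplasmic reticulum fell. In the unfolded protein list, 6 of 26 tested members rose and 16 fell, with a median log2 fold change of −0.30. By share, 23.1% rose, near the 25.2% of all genes, and 61.5% fell, against 25.8%. Hsp90b1, the chaperone GRP94, had 839.6, 845 and 803 CPM in the FSK3D libraries, against 1422, 1468 and 1518 CPM in the FSK1D libraries, a difference of −0.83 ± 0.0408 (adjusted p = 5.98e-18). Creld2 and Manf, secreted stress markers, fell by 1.22 and 1.04, and the chaperones Hyou1 and Calr by 0.89 and 0.74. Of the 6 members that rose, Trib3 and Ddit3, targets of ATF4, rose by 0.98 and 0.59, and Edem1, Dnajb9 and Sel1l, of protein disposal, by 0.48, 0.45 and 0.22. The sixth, Ppp1r15a, a phosphatase subunit, lost its call with DESeq2 (adjusted p = 0.0514), in thinned counts (adjusted p = 0.0553) and without any one of FSK3D S10, S11 or S12 or FSK1D S7 or S9 (adjusted p = 0.0548 to 0.181). Trib3 had 59.8, 64.4 and 69.9 CPM in FSK3D and 33.5, 34.7 and 30.1 CPM in FSK1D. Among ATF4 targets, 13 of 27 tested members rose and 7 fell, with a median log2 fold change of 0.078. By share, 48.1% rose, against 25.2% of all genes, and 25.9% fell, near the 25.8% of all genes. Asns, asparagine synthetase, and Atf5 rose by 0.72 and 0.55, while Ddit4, an inhibitor of mTORC1, had 124, 139 and 156 CPM in FSK3D and 250.5, 297 and 249 CPM in FSK1D, and fell by 0.92.

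Ribosome genes fell by small amounts. For cytosolic ribosomal proteins, 1 of 48 tested members rose and 26 fell, with a median log2 fold change of −0.18, and for ribosome biogenesis, 2 of 34 tested members rose and 22 fell, with a median log2 fold change of −0.24. Rps2 had 175, 159 and 179 CPM in the FSK3D libraries, against 269, 276 and 264 CPM in the FSK1D libraries, a difference of −0.65 ± 0.0439 (adjusted p = 1.65e-14), and Rplp0, Rpsa and Rpl8 fell by 0.58, 0.52 and 0.41. Rpl9 rose by 0.26. Nop56 and Nop58, core proteins of small nucleolar particles, fell by 0.69 and 0.53, and Myc, the growth-promoting transcription factor, by 0.68. The share of Rn45s was also lower, at 4.38%, 4.15% and 5.79% in FSK3D S10 to S12, against 7.11%, 8.21% and 7.46% in FSK1D S7 to S9. Ribosomal RNA was depleted before sequencing, so this share may depend on the depletion, which was not tested. With Rn45s left out of the table, the medians were −0.20 for ribosomal proteins, with 1 member rising and 28 falling, and −0.26 for biogenesis, with 2 rising and 23 falling. Ribosomal protein genes have many processed copies, among which reads may be split.

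Matrix genes went both ways and their list median was small. There, 8 of 38 tested members rose and 20 fell, with a median log2 fold change of −0.14. By share, 21.1% rose, near the 25.2% of all genes, and 52.6% fell, against 25.8%. Prg4, the lubricating proteoglycan lubricin, had 49.6, 42.6 and 41.5 CPM in the FSK3D libraries, against 211, 181 and 204 CPM in the FSK1D libraries, a fall of 2.16 on the log2 scale, and shares 4.77% of its exonic bases with Tpr on the opposite strand. Col8a1 fell by 1.11, Col6a3 by 0.63 and Col4a2, of the basement membrane, by 0.59. Postn, periostin, had 2156, 2098 and 1913 CPM in the FSK3D libraries, against 1269, 1232 and 1308 CPM in the FSK1D libraries, and rose by 0.69. Col14a1 rose by 2.26, Col18a1 by 1.09 and Col15a1 by 0.62, the last of these a basement membrane zone collagen of fat.

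Among proteases and their inhibitors, 8 of 25 tested members rose and 10 fell, with a median log2 fold change of −0.061. By share, 32% rose, against 25.2% of all genes, and 40% fell, against 25.8%. Timp1, an inhibitor of metalloproteases, had 35.1, 33.6 and 31.8 CPM in the FSK3D libraries, against 117, 121 and 122 CPM in the FSK1D libraries, a difference of −1.84 ± 0.0738 (adjusted p = 5.24e-18). Adamts4, an aggrecanase, fell by 1.58 and Plaur, the urokinase receptor, by 1.15. Adamts12 had 108, 109.7 and 103 CPM in the FSK3D libraries, against 41.6, 39.2 and 41.8 CPM in the FSK1D libraries, a difference of 1.38 ± 0.0572 (adjusted p = 6.93e-20), and Mmp13, a collagenase, and Mmp2, a gelatinase, rose by 1.75 and 0.74. Targets of YAP and SRF fell on balance (2 of 18 tested members rose and 11 fell, with a median log2 fold change of −0.26). Axl, a receptor kinase, Yap1 itself and Mkl1, a cofactor of SRF, fell by 0.51, 0.41 and 0.42, and Amotl1 rose by 0.34.

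Contractile genes moved both ways. Among smooth muscle and contractile genes, 8 of 22 tested members rose and 10 fell, with a median log2 fold change of −0.028. Acta2, smooth muscle actin, had 48.3, 51.3 and 45.1 CPM in the FSK3D libraries, against 15.9, 15.1 and 17.2 CPM in the FSK1D libraries. The groups did not overlap (1.58 ± 0.0639, adjusted p = 4.17e-20), yet over the series Acta2 averaged 214 ± 4.44 CPM in vehicle, 159.5 ± 6.75 CPM in FSK4h, 16.1 ± 1.05 CPM in FSK1D and 48.2 ± 3.11 CPM in FSK3D, with 37.8 ± 1.82 CPM in Rosi3D, so FSK3D was far below vehicle. Des, desmin, and Myh11, smooth muscle myosin, rose by 1.69 and 1.96. Smtn, smoothelin, Tagln2 and Tpm4, a tropomyosin of the cytoskeleton, fell by 1.19, 0.90 and 0.79. The median moved by more than the spread between libraries when single libraries or other settings were used, and it was −0.27 without FSK1D S7, −0.21 without FSK1D S8 and −0.23 without FSK3D S10.

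Of 31 striated muscle genes, 17 did not pass the filter on low counts. Of the rest, 4 of 14 tested members rose and 0 fell, with a median log2 fold change of 0.36. The share that rose, 28.6%, was near the 25.2% of all genes. Their summed level was 68.0 to 81.3 CPM in FSK3D and 25.5 to 27.6 CPM in FSK1D. Without Mb the sum was 26.2 to 29.1 CPM in FSK3D and 19.2 to 21.1 CPM in FSK1D. Beside Mb, Acta1, whose coding sequence is nearly that of Acta2 so that reads may be shared, rose by 1.53, and Cox6a2, the muscle form of a cytochrome oxidase subunit, by 0.77. Lrrc39, the fourth, lost its call without FSK1D S7, FSK1D S8 or FSK3D S12 (adjusted p = 0.0995, 0.109 and 0.264). For creatine and calcium cycling, 3 of 13 tested members rose and 3 fell, with a median log2 fold change of 0.00063. Each share, 23.1%, was near those of all genes, 25.2% rising and 25.8% falling. Atp2a2, a SERCA calcium pump, fell by 0.33, Alpl, alkaline phosphatase, by 0.33 and Itpr3, a calcium channel, by 0.70, whereas Itpr2 rose by 0.55 and Atp2a3 by 0.87. Without FSK3D S10, or with no filter beyond a count above 0, 5 members of this list fell, and without FSK3D S11 the median was 0.23.

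Among progenitor and fibroblast markers, 6 of 21 tested members rose and 10 fell, with a median log2 fold change of −0.25. The share that rose, 28.6%, was near the 25.2% of all genes, while 47.6% fell, against 25.8%. Vim, vimentin, had 993, 956 and 1046 CPM in the FSK3D libraries, against 1559, 1642 and 1515 CPM in the FSK1D libraries, and fell by 0.65, and Klf2 fell by 1.02. Ngfr, given above, Fap, fibroblast activation protein, and Zfp423, a preadipocyte factor that restrains thermogenic genes, rose by 5.30, 1.98 and 0.87. Of 14 endothelial markers 7 were tested, with a summed level of 82.0 to 82.9 CPM in FSK3D and 90.9 to 99.2 CPM in FSK1D. The other 7 held 18 counts over FSK3D and 32 over FSK1D, and 2 of them, Tie1 and Erg, had none. Of the tested markers, 2 of 7 rose (28.6%, against 25.2% of all genes) and 1 fell, with a median log2 fold change of 0.61. With no filter beyond a count above 0 the median was −0.094. Egfl7 and Kdr rose by 1.10 and 0.83 and Eng fell by 0.36. Egfl7 shares 1.79% of its exonic bases with Agpat2 on the opposite strand. Agpat2, which also rose, averaged 602 CPM in FSK3D, against 6.56 CPM for Egfl7. Whether Agpat2 reads were counted for Egfl7 was not tested. Without FSK3D S10, 2 of the tested markers fell, Ptprb then being called (adjusted p = 0.0379). The count was also 2, with Ptprb called, with RLE factors, no filter beyond a count above 0, thinned counts, Rn45s left out or DESeq2 (adjusted p = 0.01205 to 0.04975).

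Clock and iron genes moved both ways. In the core clock list, 10 of 19 tested members rose and 5 fell, with a median log2 fold change of 0.19. By share, 52.6% rose, against 25.2% of all genes, and 26.3% fell, near the 25.8% of all genes. Per3, a repressor of the clock, had 88, 86.1 and 93.2 CPM in the FSK3D libraries, against 45.7, 46.8 and 45.6 CPM in the FSK1D libraries, a difference of 0.96 ± 0.0602 (adjusted p = 2.99e-15). Tef, a clock output factor, rose by 0.46, while Nfil3, a repressor, and Bhlhe40 fell by 0.93 and 0.83. Without FSK1D S9, 3 members of the list fell. Among iron genes, 8 of 18 tested members rose and 8 fell, with a median log2 fold change of 0.081. Slc40a1, the iron exporter ferroportin, had 9.46, 9.05 and 8.40 CPM in the FSK3D libraries, against 2.55, 2.95 and 2.37 CPM in the FSK1D libraries, a difference of 1.77 ± 0.140 (adjusted p = 9.33e-13), and Tfrc, the transferrin receptor, rose by 0.74. Slc39a14, a zinc and iron importer, had 41.5, 39.3 and 40.2 CPM in FSK3D and 132, 111 and 135 CPM in FSK1D, and fell by 1.64, and Cp, ceruloplasmin, fell by 1.39.

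Levels of the lists relative to vehicle show where FSK1D and FSK3D stood, as a description with no test. The level is the median over tested members of the log2 CPM minus the vehicle mean, averaged over 3 libraries ± SD. Thermogenic genes stood at 0.37 ± 0.149 at 4 h, −0.21 ± 0.00211 at 1 day and 0.75 ± 0.0272 at 3 days of forskolin, with 2.03 ± 0.116 after rosiglitazone. Branched-chain amino acid genes stood at −0.26 ± 0.0548 at 4 h, −0.34 ± 0.0723 at 1 day and 0.71 ± 0.0204 at 3 days of forskolin, with 0.81 ± 0.0994 after rosiglitazone. Both lists were below vehicle at 1 day and above it at 3 days.

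For TCA cycle genes the level was 0.15 ± 0.0503 at 4 h, −0.11 ± 0.102 at 1 day and 0.63 ± 0.0370 at 3 days of forskolin, with 1.16 ± 0.0871 after rosiglitazone, and for complex I subunits it was 0.0039 ± 0.0331 at 4 h, −0.009 ± 0.0740 at 1 day and 0.44 ± 0.0231 at 3 days of forskolin, with 0.96 ± 0.0597 after rosiglitazone. At 1 day the mean of both lists was within 0.11 of vehicle. New fatty acid synthesis was at −0.29 ± 0.0445 at 4 h, −0.37 ± 0.0365 at 1 day and 0.32 ± 0.0490 at 3 days of forskolin, with 0.50 ± 0.0587 after rosiglitazone, so this median was below vehicle at 1 day and above it at 3 days. The summed level of the list was 26303 to 30470 CPM in vehicle, 31416 to 34493 CPM in FSK1D and 41963 to 45723 CPM in FSK3D. The sum was thus above vehicle already at 1 day. Scd1, given above, made up most of the sum in FSK1D and FSK3D, so the sum mainly reports that gene and not the list.

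Falling lists had other courses. The cAMP list stood at 1.73 ± 0.112 at 4 h, 0.69 ± 0.0835 at 1 day and 0.39 ± 0.060 at 3 days of forskolin, with −0.36 ± 0.0337 after rosiglitazone, declining from 4 h onward while still above vehicle at 3 days. Inflammatory genes stood at 0.84 ± 0.123 at 4 h, 0.90 ± 0.0420 at 1 day and 0.28 ± 0.118 at 3 days of forskolin, with −0.54 ± 0.284 after rosiglitazone, about as high at 1 day as at 4 h. Cell cycle genes stood at −0.053 ± 0.00955 at 4 h, 0.23 ± 0.0295 at 1 day and −0.81 ± 0.0484 at 3 days of forskolin, with −1.16 ± 0.0998 after rosiglitazone, above vehicle at 1 day and below it at 3 days. Glycolysis genes stood at 0.87 ± 0.0572 at 4 h, 1.41 ± 0.0580 at 1 day and 0.97 ± 0.0625 at 3 days of forskolin, with 0.59 ± 0.0262 after rosiglitazone, highest at 1 day, and the unfolded protein list at 0.43 ± 0.0288 at 4 h, 0.33 ± 0.0354 at 1 day and −0.069 ± 0.0207 at 3 days of forskolin, with −0.21 ± 0.0118 after rosiglitazone.

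**Figure D4:**
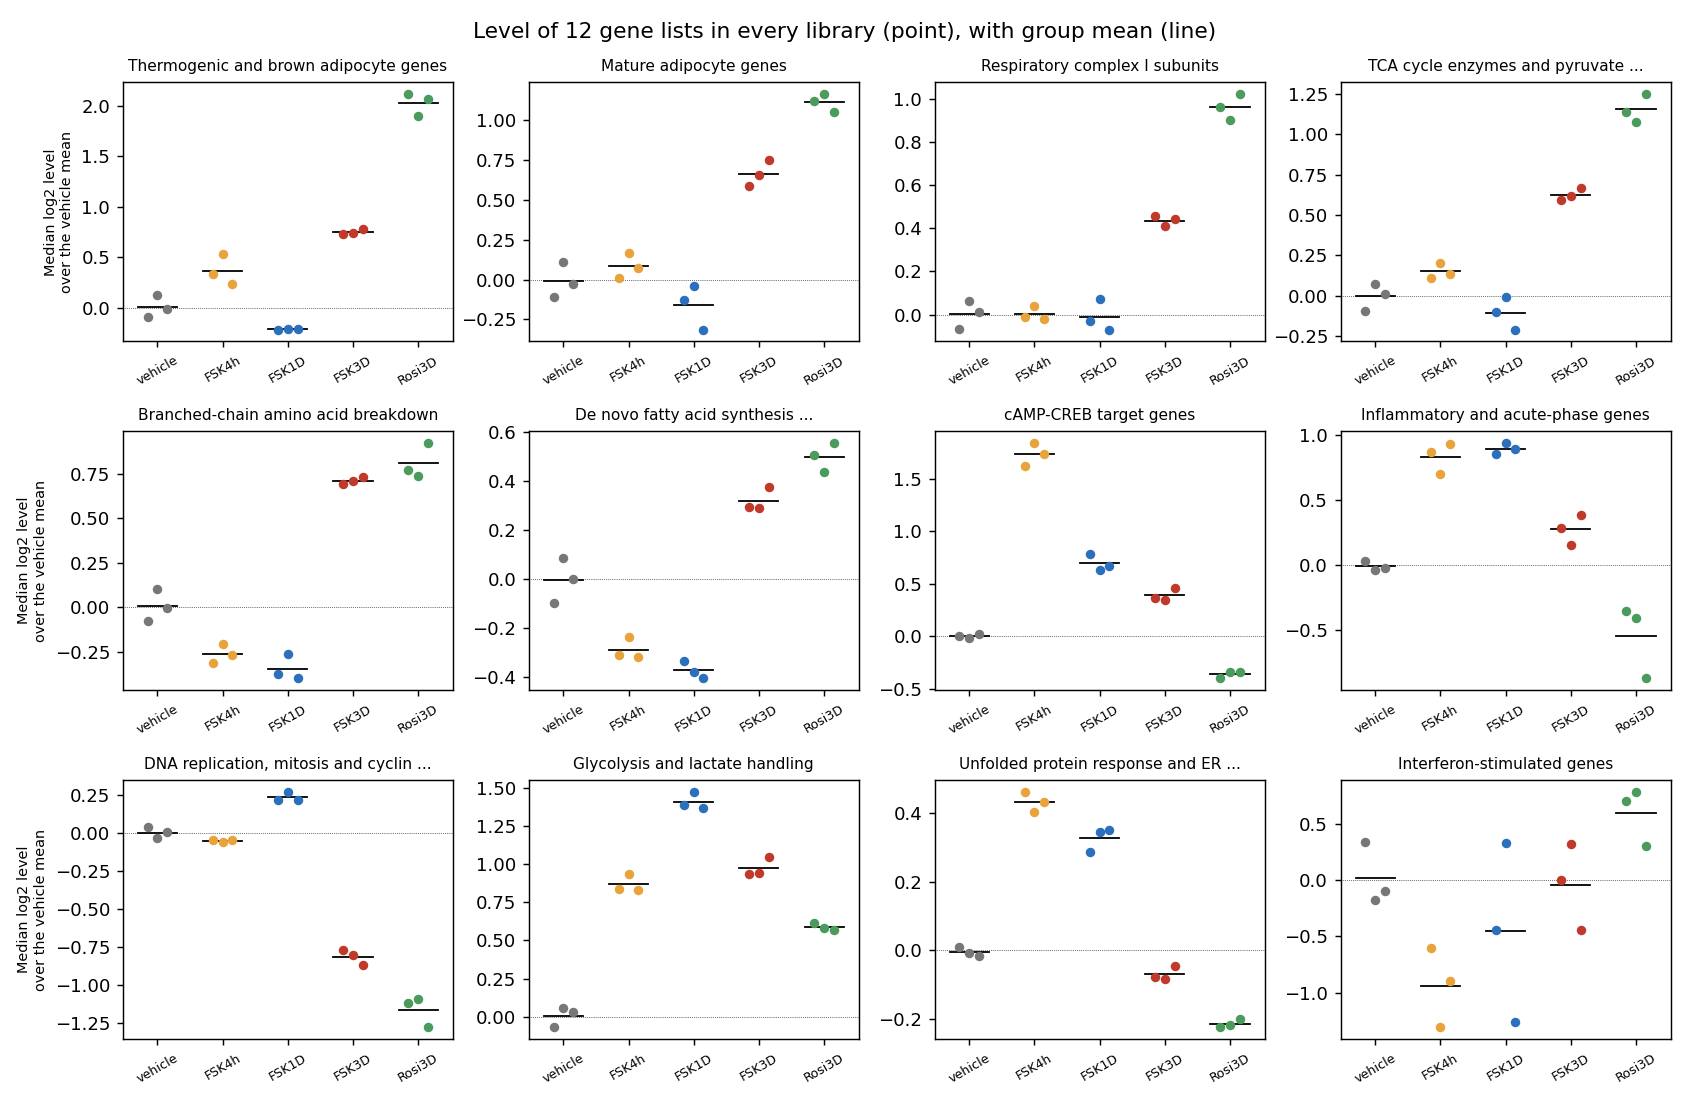
Each panel shows 1 gene list, with a point for every library and a line at the group mean of the median log2 level over the vehicle mean, in the order vehicle, FSK4h, FSK1D, FSK3D and Rosi3D. The thermogenic list lay at 0.74 to 0.78 in FSK3D and −0.21 in FSK1D, while interferon-stimulated genes spread from −0.45 to 0.32 in FSK3D and from −1.26 to 0.33 in FSK1D.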

How the data were processed

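RNA from differentiated MAP adipocytes was depleted of ribosomal RNA before sequencing, per the labels' protocols. The deposited values are whole-number counts for each gene symbol, with no normalization. The submitters' processing notes name fastp, STAR and featureCounts, with the build GRCm38 (mm10). Their versions and annotation, and how strand and multi-mapping reads were handled, were not found in these sources. Columns are numbered S1 to S15 through the series, which does not follow the labels' replicate numbers. In every library more genes had a count of 2 (721 to 907) than of 1 (407 to 539). The labels do not say whether libraries of a group are separate cultures, so the p-values describe only how far these libraries spread, possibly for technical reasons.

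Genes were filtered with filterByExpr, scaled by TMM and tested in R 4.3.3 with edgeR 4.0.16. The robust quasi-likelihood fit used the 15 libraries with a mean for each of 5 groups (10 residual degrees of freedom), two-sided tests, Benjamini-Hochberg adjustment and a threshold of 0.05. The SE is the size of the log2 fold change divided by the square root of F. The common biological coefficient of variation was 5.97%. Chi-square per degree of freedom between libraries of a group was 3.2 to 11.8, so each pair differed by more than sampling noise. Positions are from GENCODE vM21 (13876 tested symbols matched, 96.2%) and promoters from RefSeq.

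Members and the 35 gene lists were chosen with earlier results of these data known. Named genes are the 12 largest rises and 12 largest falls of at least 5 CPM without overlap, the 6 smallest adjusted p in each direction, the 5 smallest adjusted p of each list and members against its direction, and 16 genes of this biology. The 6 smallest adjusted p in each direction were taken under the same limits as the 12 largest changes. Both left out symbols that are only numbered clone or model names. For these genes the lack of overlap was set by the rule and is not a result. Identity markers, genes below the filter and promoter examples were also named, after their values were seen. Some genes that this rule names are not reported here. Of 285 named genes, 56 share exonic bases with another symbol and are uncertain to that extent. Alternatives were RLE or no composition factors, other filters, the 6 libraries alone, halved or thinned counts, Rn45s left out, DESeq2 1.42.0 and each library left out.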

Additional observations from a re-analysis of the deposited data

How the results depend on the processing

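The counts of genes held within 1.5 times the values given under each of 15 alternatives: 6720 to 7365 genes called, 3186 to 3793 higher and 3441 to 3902 lower, with 555 to 687 and 514 to 630 at 2-fold. Of 280 named genes that were called, 255 kept their direction and call under every alternative. The others each lost their call under at least 1, among them Abcd2, Bak1, Bcl2, Bcl2l11, Bnip3, Bst2, Cars, Ciart, Cited1, Col5a3, Fads2, Gbp3, Ldhb, Lrrc39, Mmp19, Nr1d2, Oasl1, Pde10a, Pde4d, Ppp1r15a, Rsad2, Shmt2, Tcf7l2 and Tnfaip3. Cd68, which was not called, reversed to −0.013 with counts thinned to the smallest library. Of 510 recomputed list medians, 11 moved by more than the median SD of the members between libraries. By a narrower measure, the SD of the list level between libraries, 51 moved; that measure was the one used at first, and the wider was taken after its result was seen. Under the wider measure the smooth muscle median was −0.21 with at least 1 CPM in 3 libraries, −0.22 with the 6 libraries alone, −0.22 with halved counts and −0.23 with thinned counts, and from −0.27 to −0.0067 when 1 library was left out. The endothelial median was −0.094 with no filter beyond a count above 0. With 1 library left out, medians ran from 0.039 to 0.19 for cholesterol, from −0.029 to 0.23 for creatine and calcium cycling and from −0.28 to −0.14 for hypoxia. The cause was not tested. No paired analysis was possible because the columns carry a running library number and not the replicate numbers of the labels. FSK3D S11, with 14056200 counts, limits the precision of low genes.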
